A study of Mus musculus with 4 samples.

Results

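The 8 genes described here encode parts of the hemidesmosome and of laminin-332, the matrix protein it binds: *Itga6*, *Itgb4*, *Col17a1*, *Dst*, *Plec*, *Cd151*, *Lama3* and *Lamb3*. They were taken by gene symbol from the deposited table of the bulk RNA-seq, on condition that their mean normalised count was above 0. All 8 met it, among 17044 genes with a mean above 0 and 24421 genes listed.

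The RNA came from hair follicle stem cells (HF-SCs) of mouse back skin at postnatal day 44, with 2 libraries from control mice and 2 from *miR-205* inducible mice. The inducible mice carry a *pTRE2-miR-205* transgene, made in FVB mice and switched on through a *Krt14*-driven reverse tetracycline transactivator, which acts in keratin 14-expressing skin epithelium when doxycycline is fed. Mice of both groups carry *K14-H2BGFP*, and the labels give the strain as C57BL/6. The labels call the control mice untreated and the inducible mice doxycycline-treated for 2 days from postnatal day 42, while the protocol text has both groups on doxycycline. Cells were sorted as live cells with strong GFP, high integrin α6 and high CD34 on the surface and no Sca1. Integrin α6 is the protein of *Itga6*, so the cells were chosen on the product of one member.

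Hemidesmosomes rivet a basal keratinocyte to the basement membrane. Inside the cell, keratin filaments are caught by plectin (*Plec*) and the epithelial form of dystonin, BPAG1e (*Dst*). These plakins bind the transmembrane partners integrin α6β4 (*Itga6* and *Itgb4*) and collagen XVII (*Col17a1*), with the tetraspanin CD151 beside the integrin, and the outer face holds laminin-332, whose α3 and β3 chains come from *Lama3* and *Lamb3*. In skin, inherited loss of these proteins causes blistering, and collagen XVII is known for its part in the upkeep of bulge HF-SCs.

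Each level below is the authors' mean over the 4 libraries, control and induced together, after division by library size factors. The groups are not compared here, because the table gives no value for a single library and its remaining columns, the authors' own comparison, were not used. No level therefore carries a spread between mice. Counting error could be bounded. A gene with 1 read in 1 library has a mean that depends only on that library's depth, which gave 4 relative depths between 0.716 and 1.24, a 1.73-fold range. The whole table then holds between 37.5 M and 64.7 M (mega) assigned reads over the 4 libraries. The methods give paired-end reads, so a read counted here may be a read pair. *Cd151*, the lowest member, rests on between 6316 and 10904 reads, with a counting error of at most 1.26%, and the other 7 members have a counting error of at most 0.52%.

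The 8 genes were abundant in these cells. Their mean normalised counts ranged from 2204 for *Cd151* to 111705 for *Col17a1*, a 50.7-fold range, against a median of 117 over the genes with a mean above 0. Together they took 1.89% of all normalised counts, and *Col17a1* and *Dst* made up 69.4% of the members' sum. By count, among the 17044 genes, 6 of the 8 ranked in the first 100 and 7 in the first 200. Per kb of annotated exon, the scale used further below, *Col17a1* ranked 18, *Lamb3* 171, *Itgb4* 238 and *Dst* 287. On that scale *Itga6*, *Lama3*, *Cd151* and *Plec* ranked 412, 428, 512 and 747, among 16161 genes with a length. The rank of *Plec* is percentile 95.4. The plot of percentiles against levels places all but *Cd151* at the flat top of the curve.

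**Figure D1:**
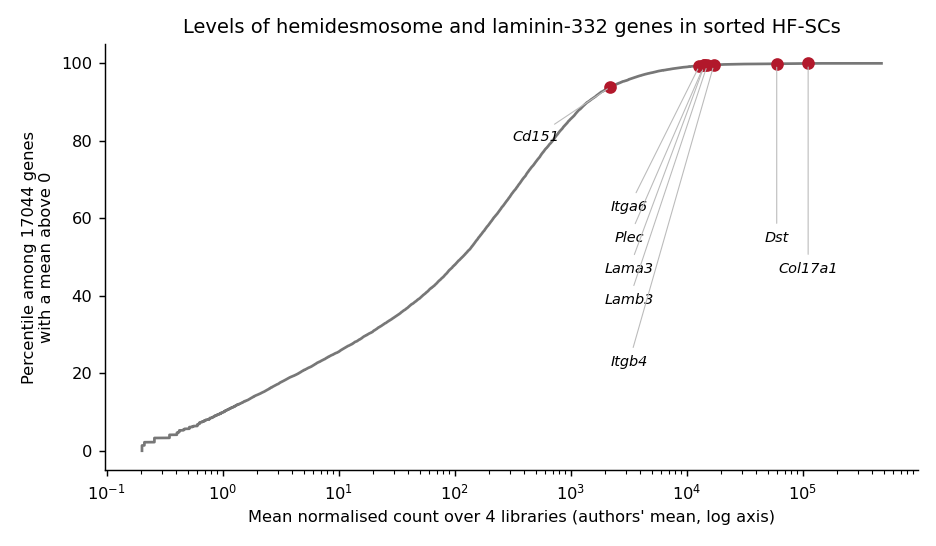
The x axis is the mean normalised count over the 4 libraries on a log scale, the y axis the percentile among genes with a mean above 0, the grey line all such genes and the red points the 8 members. Cd151 sits at percentile 93.9, and the other members lie between percentile 99.4 and 99.97.

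The α3 and β3 chain genes of the extracellular ligand were close to each other in reads. *Lama3*, the α3 chain with the domains that integrins bind, had a mean normalised count of 14273. *Lamb3*, the β3 chain, had 15082. They lay 5.67% apart in reads, although the genes differ in length. *Lama3* (ENSMUSG00000024421.9) spans 12492533 to 12741522 on the forward strand of chromosome 18 in the NCBIM37 build, and its annotated exons add up to 10.5 kb. *Lamb3* (ENSMUSG00000026639.11) spans 195128151 to 195170072 on the forward strand of chromosome 1, with 4.37 kb of exons.

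Levels of different genes are best set side by side per kb of transcript, here by the union of all annotated exons of a gene. On that scale *Lamb3* had 3455 normalised counts per kb and *Lama3* 1355. *Lama3* was therefore at 0.39 of *Lamb3* per kb. The gap depended on the transcript assumed, since *Lama3* has a long and a short annotated form. With the shortest complete transcript (one annotated with both a 5′UTR and a 3′UTR), 5.55 kb for *Lama3*, the ratio rose to 0.68 and stayed under 1.

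By exon union, the only length used for the other laminin genes, *Lama3* and *Lamb3* stood above the other α and β chain genes. *Lama3* was followed by *Lama5*, the α5 chain of laminin-511, at 753 per kb, and the α1, α2 and α4 genes lay between 1.49 and 14.7. Among β chains, *Lamb3* had 8.10 times the level per kb of *Lamb2* and 49.0 times that of *Lamb1*. *Lama3* made up 63.6% of the summed level per kb of the α chain genes and *Lamb3* 87.4% of that of the β chain genes.

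Of the receptors, *Itgb4* had a mean normalised count of 17204 and *Itga6* one of 12910.2. The β4 chain pairs only with α6, whereas α6 can also pair with β1. *Itga6* (ENSMUSG00000027111.8) lies on chromosome 2, 71583673 to 71696473, and *Itgb4* (ENSMUSG00000020758.9) on chromosome 11, 115836023 to 115869726, both on the forward strand in NCBIM37. Per kb of exon union, *Itgb4* had 2452 and *Itga6* 1430.5, a ratio of 0.58 for *Itga6* to *Itgb4*.

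That order turned over with the length used. The exon union of *Itga6* is 9.03 kb, while its longest annotated transcript is 4.31 kb. By the longest transcript *Itga6* had 2995 per kb and *Itgb4* 2771, a ratio of 1.08. By the shortest complete transcript the ratio was 1.01, by coding length 1.25, and by the shortest protein-coding transcript 1.28. Which of the integrin chains had more transcripts cannot be told from these values, and for 4 of 5 lengths *Itga6* was the higher.

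The other integrin genes were set on exon union only, so the shares and folds here were not tried at other lengths. On that scale *Itga6* had 50.9% of the summed level per kb of the 8 α chain genes examined. *Itga3*, whose protein joins β1 to bind laminin-332 outside hemidesmosomes, had 709 per kb, less than *Itga6* by 2.02-fold. The collagen receptor gene *Itga2* had 289, and the αv, α5 and α1 genes had between 34.7 and 173. *Itga8* and *Itga9* had 2.71 and 2.33. Among 6 β chain genes, *Itgb4* had 49.6% and *Itgb1*, which serves many α chains, 40.2%, at 1989 per kb. *Itgb4* and *Itgb1* differed 1.23-fold by exon union. The other lengths put *Itgb4* itself between 1.13 and 1.29-fold above its exon union level.

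*Col17a1*, which encodes the transmembrane collagen that links the plakins to the matrix, was the highest member on every scale except that of the shortest protein-coding transcript. Its mean normalised count of 111705 ranked 6 among the 17044 genes and was 0.85% of all normalised counts. *Krt5*, the basal keratin gene whose filaments end on hemidesmosomes, had 146090.4, and its partner *Krt14* had 90970.9, so *Col17a1* lay between them in reads. Per kb of exon union it lay below both, since *Krt5* had 66708 and *Krt14* 51747, which is 3.44-fold and 2.67-fold above *Col17a1*. *Col17a1* (ENSMUSG00000025064.8) is on the reverse strand of chromosome 19 at 47720834 to 47766584 in NCBIM37. Its annotated transcripts differ little in length, and its level was 19376 per kb by exon union and 20395 by the shortest complete transcript. Per kb it was 7.90-fold above *Itgb4* by exon union, and between 6.62 and 8.03-fold by the other lengths.

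The tetraspanin gene *Cd151*, whose product holds laminin-binding integrins at the cell surface, was the lowest member in reads, with a mean normalised count of 2204, and ranked 1036. Its exon union is the shortest of the 8, at 2.01 kb, and per kb it had 1097, at percentile 96.8 of the 16161 genes with a length. It then stood at 0.45 of *Itgb4*, and at 0.92 by coding length. Among 5 tetraspanin genes, by exon union only, *Cd151* was in place 3. It lay under *Cd9* at 4496 per kb and *Cd63* at 2654, and above *Cd81* at 586 and *Cd82* at 244. *Cd151* (ENSMUSG00000025510.6) lies at 148653261 to 148657378 on the forward strand of chromosome 7 in NCBIM37.

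Of the cytoplasmic plakins, *Dst* depended strongly on the length used. *Dst* had a mean normalised count of 59882 and ranked 14, and *Plec* had 14153 and ranked 93. *Dst* (ENSMUSG00000026131.9) spans 33965125 to 34365495 on chromosome 1, forward strand, and its exon union of 29.9 kb joins the large neuronal and muscle forms with the much shorter epithelial form. By exon union it had 2006 per kb. By the shortest complete transcript, of 7.94 kb, it had 7546 per kb, second only to *Col17a1*. The gene counts do not say which form was present, and these lengths leave a 3.76-fold range for *Dst* per kb.

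*Plec* (ENSMUSG00000022565.8, chromosome 15, 76001404 to 76063004, reverse strand in NCBIM37) had 781 per kb by exon union and 955 by the shortest complete transcript. It was the lowest member per kb by every length other than the shortest protein-coding transcript, which for *Plec* is a fragment of 254 bases. *Plec* was at 0.39 of *Dst* by exon union and at 0.13 by the shortest complete transcript. The desmosome gene *Dsp*, another plakin, had 9003 per kb by exon union, and *Ppl*, *Evpl* and *Macf1* had between 581 and 711, near *Plec*. For *Eppk1* no length was found, and its mean normalised count was 7793.

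**Figure D2:**
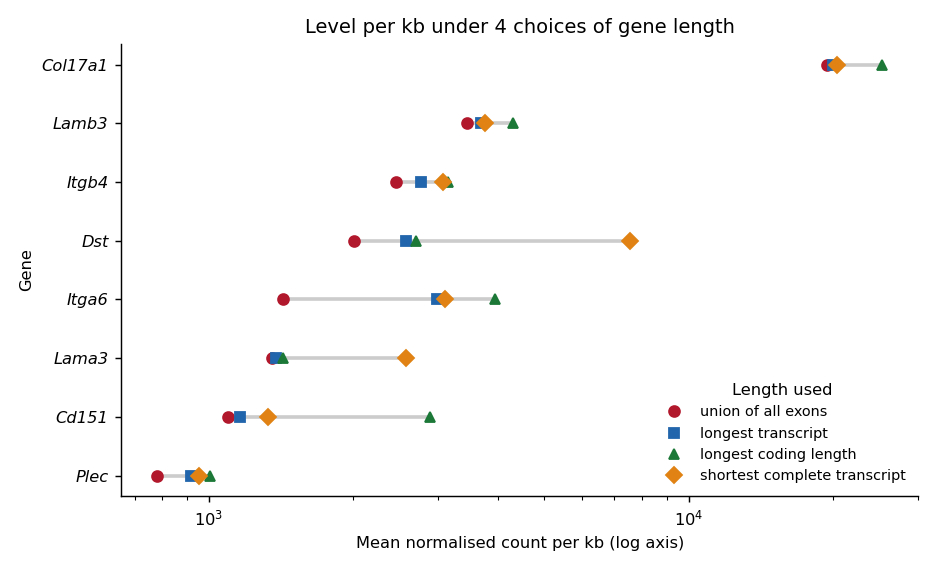
The x axis is the mean normalised count per kb on a log scale, each row is one of the 8 genes, and the 4 symbols are the 4 lengths named in the key. The grey bar of Dst runs from 2006 to 7546 and that of Itga6 from 1430.5 to 3941, while Col17a1 stays to the right of every other gene.

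In reads, the order of the members was *Col17a1*, *Dst*, *Itgb4*, *Lamb3*, *Lama3*, *Plec*, *Itga6* and *Cd151*. *Lama3* and *Plec* were 0.844% apart, inside the counting interval of 1.37%. The next narrowest step, from *Lamb3* to *Lama3*, was 5.67%, outside its counting interval of 1.35%. Differences between mice are not part of these intervals, and steps of this size could not be tested. Exons of some members share bases with other genes, and how reads in such bases were assigned is not known. Exons of *Itgb4*, *Dst* and *Cd151* overlap antisense genes by 537, 769 and 223 bases, and *Plec* shares 205 bases with *Parp10* on its own strand. The library kit keeps strand, but the strand setting used for counting is not given in the sources used here. No exon base of *Itga6*, *Col17a1*, *Lama3* or *Lamb3* was shared.

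The matrix and filament genes around the hemidesmosome were uneven. *Col7a1*, which encodes the anchoring fibril collagen on the far side of laminin-332, had a mean normalised count of 12108, against 12910.2 for *Itga6*. Of 12 basement membrane genes, 8 lay below *Cd151* in reads and 11 per kb of exon union, with *Col7a1* above it at 1186 per kb. Those below in reads include *Col4a1* at 1774 and *Col4a2* at 2066, the network-forming collagen IV chains. The nidogen genes, whose products bridge laminin and collagen IV networks, were the lowest of the 12, with 61.0 for *Nid1* and 32.6 for *Nid2*. Among all genes with a mean above 0 these lie at percentiles 41.7 and 35.1. *Erbin*, listed under its older symbol *Erbb2ip*, encodes a partner of β4 and BPAG1e and had 3281.

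The cell type label was checked against markers. All 12 HF-SC markers had a mean above 0, but so had 17044 of the 24421 genes listed. The same held for every listed sebaceous, fibroblast, melanocyte, myeloid, endothelial and Schwann cell marker, so it separates no cell type. Among the HF-SC markers, *Krt15* had 119883, *Cd34* (itself a sort marker) 14575, *Nfatc1* 5639, *Sox9* 5555 and *Lgr5* 4432. The lowest were *Tcf7l1* at 590.3 and *Fgf18* at 134. The list summed to 3.49% of all counts. Of this, *Krt5* and *Krt14*, expressed in basal keratinocytes at large, made up 1.81% of all counts and the other 10 markers 1.68%. Among those 10, *Krt15* had 0.916%, *Postn* 0.451% and the sort marker *Cd34* 0.111% of all counts. The 7 suprabasal markers matched summed to 0.194%, led by *Sbsn* at 10748.7 and with *Krt10* at 7246. The 8 fibroblast markers summed to 0.108%, with *Col1a1* at 5186, and the 8 myeloid markers to 0.046% with *Cd74* at 2744. The 8 sebaceous markers summed to 0.0662%, led by *Fasn* at 3913 and *Scd1* at 3085, with *Mc5r* lowest at 2.71. The 7 melanocyte markers summed to 0.0231%, led by *Mitf* at 2024, with *Dct* next at 498 and *Mlana* lowest at 9.77. The 4 endothelial markers had at most 51.3 and the 4 Schwann cell markers at most 352. Of T cell and muscle markers, *Cd8a* and *Myh4* were at 0 and the highest value was 9.52. The members are also made by other epithelial cells, and the part of other cells in their levels was not tested. In bulk RNA, fewer cells of a type and less RNA per cell cannot be told apart.

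Because *miR-205* was what the study induced, the genes were searched for its seed match. A microRNA finds its targets mainly through bases 2 to 8, the seed, which pair with the complementary letters of an mRNA, most often in the 3′UTR. The mature sequence, from the RefSeq GRCm38.p6 tables, is shown with the seed in capitals. It is on the reverse strand of chromosome 1 at 193507503 to 193507524 of that build.
mmu-miR-205-5p: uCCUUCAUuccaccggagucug

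The complementary letters are ATGAAGG, searched on the mRNA strand of GENCODE vM1 transcripts. In the longest annotated 3′UTR of each gene, 1 of 8 members had a match, *Itga6*, against 11.7% of the 15136 genes with a 3′UTR. The *Itga6* match, in capitals below, lies at 71691987 to 71691993 of chromosome 2 (NCBIM37, forward strand), at base 289 of a 3′UTR of 1310 bases in exon 18 of 18 of transcript Itga6-004.
*Itga6* 3′UTR: caccacagcaATGAAGGcagccacact

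This 3′UTR belongs to an incompletely annotated transcript, one without an annotated 5′UTR. In the 2 complete transcripts of *Itga6* the match lies in no exon, and with complete transcripts alone 0 of 8 members held a match in the 3′UTR, against 11.4% of genes. Among genes with a 3′UTR within 25% of the length of that of *Itga6*, 10.6% had a match. The other members' 3′UTRs of 312 to 1196 bases held neither ATGAAGG nor its 6-letter core TGAAGG. The core was in the longest 3′UTR of 36.4% of all genes. For lengths like those of *Itgb4*, *Lama3* and *Lamb3*, 312 to 368 bases, between 1.89% and 2.30% of genes have the longer match, so little could be found there. The median 3′UTR of the members was 832 bases, against 1087 over all genes.

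The coding sequences of the members' longest transcripts, 63510 bases in all, held 8 matches. They lay in 5 of 8 members, against 21.5% of all genes searched. The density was 1.26 per 10 kb of coding sequence, against 1.56 per 10 kb over all genes. For these 5 members, the share of genes of like coding length (within 25%) with at least 1 match ran from 39.2% for *Lamb3* to 90.9% for *Dst*. *Lamb3* had 2, both in exon 21 of 23 and in both complete transcripts. Genes with a coding length within 25% of that of *Lamb3* had a mean of 0.514 matches. *Itgb4* had 1 in exon 29 of 40, present in all 6 complete transcripts, and *Plec* 1 in exon 18 of 33, present in all 14. Genes of like coding length had a mean of 0.859 matches for *Itgb4* and 2.02 for *Plec*. They are printed because they lie in every complete form of these genes, with the match in capitals and the coordinates in NCBIM37.
*Lamb3*, chr1:195166121-195166127, forward strand: ggtgaaaggcATGAAGGaacagatgag
*Lamb3*, chr1:195166154-195166160, forward strand: ctgggcacggATGAAGGagcttcgccg
*Itgb4*, chr11:115861658-115861664, forward strand: cgactacgaaATGAAGGtgtgtgccta
*Plec*, chr15:76018680-76018686, reverse strand: agaactggaaATGAAGGaaaagaaaat

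*Col17a1* had 1 coding match, formed across the junction after exon 5 of 54. *Dst* had 3 in a large form of 99 exons. Those in exons 44 and 49 are in 3 of 4 complete transcripts and not in the shortest complete one, and the other crosses the junction after exon 2. The 11 genes of like coding length had a mean of 3.36. *Itga6*, *Cd151* and *Lama3* had 0 in the coding sequence of the longest transcript, where 36.6%, 11.6% and 66.0% of genes of like coding length had at least 1. These matches are letters in a transcript, and whether *miR-205* binds them was not measured in these data. The paper captured mRNAs bound by *miR-205* in a separate experiment. Its printed list of bound actin cytoskeleton and cell adhesion genes names none of the members. The full set of bound genes was not examined here.

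**Figure D3:**
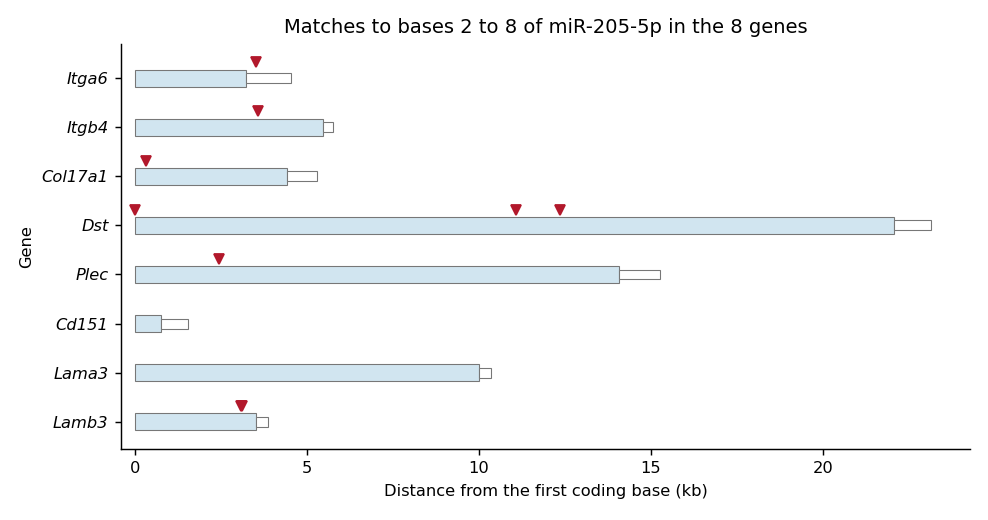
Each row is a gene drawn to scale in kb from its first coding base, and a red triangle is a match to bases 2 to 8 of miR-205-5p. The blue bar is the coding sequence of the longest transcript. The white bar is the longest annotated 3′UTR of the gene, which can belong to another transcript. For Itga6 the blue bar is from Itga6-001 and the white bar from the incomplete Itga6-004. The 1 triangle over a white bar is that of Itga6, 2 triangles of Lamb3 overlap near the end of its coding bar, and Cd151 and Lama3 have none.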

How the data were processed

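RNA of FACS-purified HF-SCs was sequenced from 2 control and 2 *miR-205* inducible libraries. Per the submitters' processing notes, reads were aligned with HISAT2 2.1.0, handled with SAMtools 1.3.1, counted per gene with HTSeq, and compared by the authors with DESeq2. The labels name mm10 and the methods NCBI37/mm10, and the annotation is not given in the sources used here. The signal used is the mean normalised count deposited by the authors, averaged over all 4 libraries. The table has 0 columns of per-sample values. Its 5 other columns hold the authors' log2 fold change, standard error, test statistic, p-value and adjusted p, and were not used, so no test was run.

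Levels were divided by lengths from GENCODE vM1 on NCBIM37, found for 94.8% of genes with a mean above 0. No coordinates were converted. Relative depths came from the means of genes with 1 read, and all 1685 genes with a mean of at most 1 were whole-read sums of the 4 steps, within a relative tolerance of 1e-06. Counting intervals are at 95% and cover counting error only. The genes named are the 8 members and, from lists of partner, family and marker genes, those a comparison needed. A partner gene is not reported here. Members and lists were chosen with earlier results of these data known. With 1 mean per gene, genes of like pattern could not be sought. Steps were tested on simulated data. Tables were read with pandas 2.3.3 and numpy 2.4.6 under Python 3.11.15, intervals used scipy 1.17.1, and plots were drawn in matplotlib 3.10.9.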

Additional observations from a re-analysis of the deposited data

How the results depend on the processing

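No paired analysis was possible because the table holds no value per library, and for the same reason no replicate could be left out and no count test run. The median percentile of the 8 members was 99.5 among genes with a mean above 0, 99.2 among genes with a mean over 50 and 99.7 among all rows. Their median level per kb was 1718 by exon union, 2671 by the longest transcript, 3023 by coding length, 12066 by the shortest protein-coding transcript, which includes fragments, and 3094 by the shortest complete transcript, a length added after seeing the data.

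Ratios are given for the longest transcript, coding length, shortest protein-coding transcript, shortest complete transcript and no length, in this order. *Itga6* to *Itgb4*, 0.58 by exon union, was 1.08, 1.25, 1.28, 1.01 and 0.75. *Lama3* to *Lamb3* (0.39) was 0.374, 0.332, 0.129, 0.685 and 0.946. *Plec* to *Dst* (0.39) was 0.356, 0.372, 1.75, 0.127 and 0.236. *Col17a1* to *Itgb4* (7.90) was 7.21, 8.03, 6.62, 6.62 and 6.49. *Cd151* to *Itgb4* (0.45) was 0.418, 0.918, 0.431, 0.431 and 0.128. The ratios of *Itga6* to *Itgb4* and *Plec* to *Dst* crossed 1, and the shift comes from the lengths, since the counts are the same.

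Of 8 members, 1 had a seed match in the 3′UTR with bases 2 to 8, with bases 2 to 7 and in any annotated 3′UTR. The shares over all genes for these settings were 11.7%, 36.4% and 12.8%. With an A opposite base 1 required, 0 members had a match, against 4.22% of all genes. With complete transcripts alone, a setting added after seeing the data, 0 members had a match, against 11.4% of genes. The members' share of all counts, 1.89%, was 1.96% without *Rn45s*, the ribosomal RNA precursor, also added. Counting error was at most 1.26% for any member, and the spread between mice is not known.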
